A study of Mus musculus with 16 samples.

Results

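The matrix metalloproteases, their tissue inhibitors and the related ADAMTS proteases were followed in mouse prostate. Every gene of the table whose symbol is Mmp with a number, Timp1 to Timp4 or Adamts with a number was taken, which gave 46 of 29535 genes, namely 23 Mmp, 4 Timp and 19 Adamts genes. A gene was called expressed when its mean log2 value over all libraries was at least 3.32, and 37 of the 46 passed (16 Mmp, 4 Timp and 17 Adamts genes). The study sequenced poly-A RNA of prostate from mice of 12 months on a hybrid 129/SvImJ and C57Bl/6J background that were homozygous mutant (-/-) or wild type (+/+) for 1 gene, and that received finasteride or vehicle. Finasteride blocks the 5-alpha-reductases, which turn testosterone into the stronger androgen dihydrotestosterone. There were 5 libraries of mutant mice on finasteride, 3 of mutant mice on vehicle, 5 of wild-type mice on finasteride and 3 of wild-type mice on vehicle. Nothing in the labels ties each library to its own animal, and p-values therefore cover only the spread among these samples. The labels give neither the prostate lobe nor the finasteride dose.

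Matrix metalloproteases are zinc-dependent enzymes that are mostly secreted as inactive precursors, or held at the cell surface, and that cut collagens, elastin, proteoglycans and surface proteins once a propeptide is removed. The tissue inhibitors (TIMPs) bind their active site and block them. The ADAMTS proteases are secreted relatives with thrombospondin repeats, among them the aggrecanases, which cut versican and aggrecan, and the procollagen N-proteinases, which trim new collagen. In the rodent prostate these enzymes are best known from the remodelling of ducts after androgen withdrawal.

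Levels are normalized and on a log2 scale. Read depth is unknown, and each library's total, itself in log2, was 24.07 to 24.55. Library 3 of mutant vehicle, library 3 of wild-type vehicle, libraries 3 and 4 of mutant finasteride and library 4 of wild-type finasteride could each be rebuilt as a weighted mean of 2 libraries from the same group over genes of log2 8 or more, with a residual of 0.063 to 0.092 (log2), against 0.099 or more for each of the other 11. Should these 5 not be independent samples, the tests on 16 libraries overstate their evidence, so the counts and main results are also given over the other 11. Those are libraries 1 and 2 of each vehicle group, libraries 1, 2 and 5 of mutant finasteride and libraries 1, 2, 3 and 5 of wild-type finasteride. A call can be lost there through the smaller groups alone. Genes flanking the Mmp run and most single genes of the lists of partners and substrates are given over all 16 only. The summed level of 5 seminal vesicle genes, which mark an attached gland, ran from 16.65 to 21.48 in mutant finasteride, 16.61 to 17.91 in mutant vehicle, 9.19 to 14.29 in wild-type finasteride and 9.56 to 21.44 in wild-type vehicle libraries, where library 2 held 9.56 and library 1 held 21.44. The summed level of 5 luminal epithelial markers of the prostate, all expressed, was 14.87 to 14.95, 16.24 to 16.32, 17.72 to 18.45 and 18.22 to 18.44 in those 4 groups in the same order. They include the androgen-driven secretory protein probasin, whose changes in the mutant, given below, were larger than those of the keratin Krt8.

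Per kilobase of exon, Mmp7 stood first of the 46 genes in all 4 groups, with mean log2 levels per kilobase of 12.6 in mutant finasteride, 10.64 in mutant vehicle, 14.94 in wild-type finasteride and 14.9 in wild-type vehicle libraries. Timp2, an inhibitor that also helps Mmp14 to activate Mmp2, stood second in all 4 groups, at 10.74, 9.55, 9.80 and 10.54 per kilobase in that order. The membrane protease Mmp15 and the matrix-bound inhibitor Timp3 were next over all libraries (8.99 and 8.38 per kilobase). Over all libraries, log2 levels per kilobase were 1.73 to 13.39 for the expressed Mmp genes, 6.95 to 10.18 for the Timp genes and 0.94 to 5.62 for the expressed Adamts genes. Before division by length, Adamts16 (mean log2 level 3.39) was just inside the threshold and Adamts13 (3.17), which cuts von Willebrand factor, just outside. Of the 37 genes above it, 4 had at least 1 group mean below 3.32 (Mmp8, Mmp20, Mmp3 and Adamts16). The 9 genes below the threshold were Adamts13, Adamts18, Mmp1a, Mmp1b, Mmp10, Mmp13, Mmp21, Mmp25 and Mmp27.

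Mmp7 encodes matrilysin, a small secreted protease made mainly by glandular epithelium. Its log2 level was 12.01, 13.50, 12.40, 12.58 and 12.98 in the mutant finasteride libraries and 11.01, 10.54 and 10.64 in the mutant vehicle libraries. It was 15.37, 14.75, 14.76, 15.04 and 15.24 in the wild-type finasteride libraries and 15.11, 14.88 and 14.99 in the wild-type vehicle libraries. The wild-type libraries on finasteride and on vehicle overlapped at the top, all mutant finasteride libraries lay below them, and all mutant vehicle libraries lay lowest. On vehicle, Mmp7 was 19.2-fold lower in the mutant than in the wild type, a log2 change of -4.26 ± 0.28 (SE, limma adjusted p = 8.47e-08), which was the 59th lowest change of 16506 genes tested. On finasteride the mutant was 5.06-fold below the wild type (-2.34 ± 0.22, limma adjusted p = 2.65e-07).

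Finasteride went with a higher Mmp7 level in the mutant, by 1.96 ± 0.25 log2 units (limma adjusted p = 1.94e-05), and all 5 treated libraries lay above all 3 on vehicle. In the wild type the change was 0.04 ± 0.25 (limma adjusted p = 0.914), with a direction that turned when library 2 of wild-type vehicle or library 1 or 5 of wild-type finasteride was left out (-0.0179, -0.0449 and -0.0106). The finasteride effect was larger in the mutant than in the wild type by 1.92 ± 0.36 (limma adjusted p = 0.000359). Over 11 libraries the mutant effect on vehicle, the finasteride effect in the mutant, the mutant effect on finasteride and the difference between the finasteride effects remained past the threshold (limma adjusted p = 0.000576, 0.0054, 0.00043 and 0.0165). These are whole tissues, so fewer cells that make a transcript and less of it per cell cannot be told apart. Of the 5 luminal markers, 0 were higher and 2 lower in the mutant on vehicle (median log2 change -0.163), and 2 were higher and 1 lower with finasteride in the mutant (median -0.226). Probasin changed by -2.54 ± 0.25 in the first comparison and -4.61 ± 0.22 in the second (limma adjusted p = 3.62e-06 and 1.65e-09), and the keratin Krt8 changed by -0.16 ± 0.14 and 0.51 ± 0.12 (limma adjusted p = 0.389 and 0.00315). The summed level of 5 markers of proximal luminal cells was 16.42 to 16.64 in mutant finasteride, 14.9 to 15.09 in mutant vehicle, 11.2 to 11.94 in wild-type finasteride and 13.03 to 13.11 in wild-type vehicle libraries. In mutant finasteride libraries 1 to 5 the seminal vesicle sum was 21.48, 16.65, 21.32, 20.85 and 20.43, the reverse order of Mmp7. Libraries 3 and 4 could be rebuilt from 2 others of the group, so this order was partly fixed. The part of cell composition or of attached gland in the Mmp7 result was not tested.

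**Figure D1:**
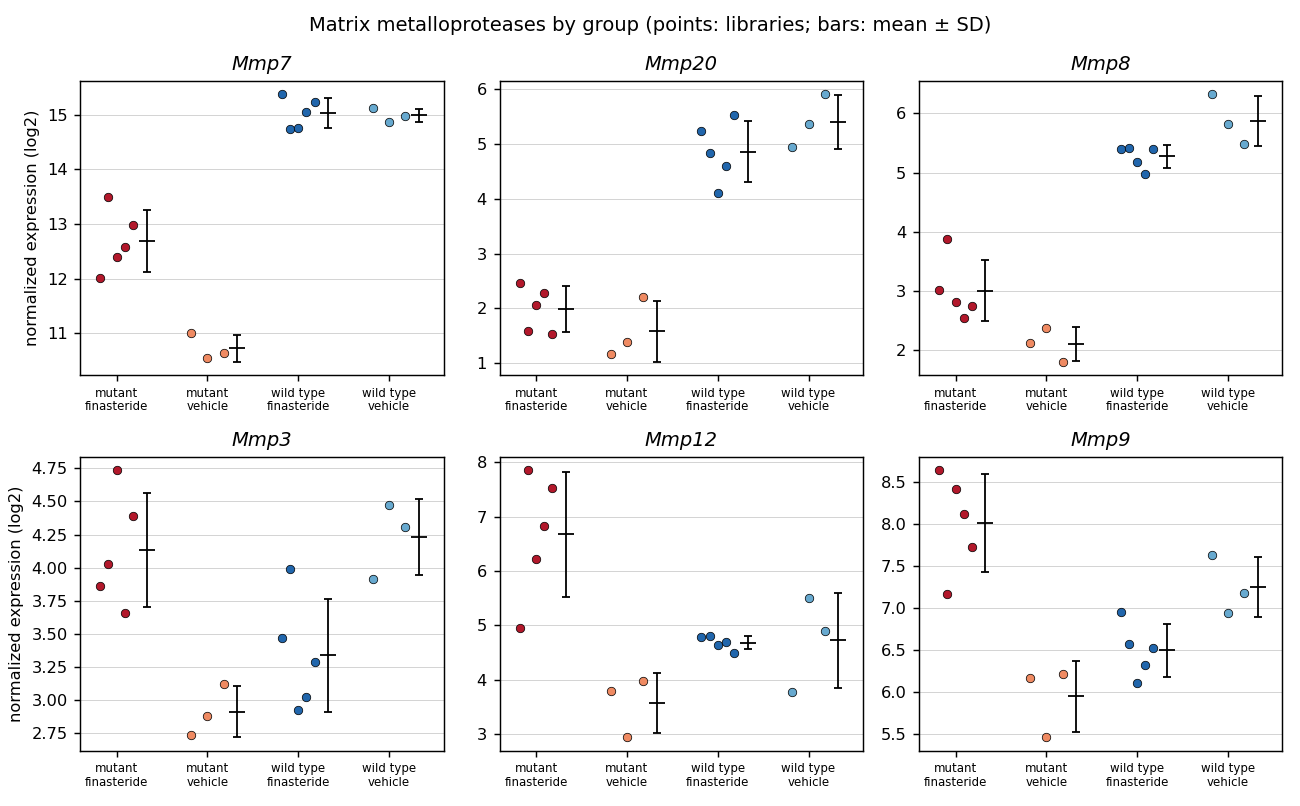
Log2 normalized expression (y axes, scaled to each gene) of Mmp7, Mmp20, Mmp8, Mmp3, Mmp12 and Mmp9 in the 16 libraries, by group. Points are libraries and bars the group mean ± SD; Mmp7, Mmp20 and Mmp8 are lower in all mutant libraries than in any wild-type library, whereas Mmp12 and Mmp9 are highest on average in mutant finasteride, where they averaged 6.67 ± 1.15 and 8.01 ± 0.59.

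Mmp7 lies at the end of a run of 10 Mmp genes on chromosome 9, in the order Mmp13, Mmp12, Mmp1b, Mmp3, Mmp1a, Mmp10, Mmp8, Mmp27, Mmp20 and Mmp7 in the GRCm38 annotation. Of the 10, 5 were expressed. The nearest expressed neighbours, Mmp20 and Mmp8, were like Mmp7 lower in the mutant both on vehicle and on finasteride, and Mmp3 and Mmp12, farther along, were not. Mmp20 and Mmp8 had both mutant group means under the expression threshold and passed it only through the wild-type groups, so their lower mutant levels are partly fixed by the filter and are given as a description, beside a fit of all genes with no filter. The sequences before the start sites of these 5 genes are shown so that the neighbours can be compared. They are the 250 bases upstream of the RefSeq start (GRCm38.p6, plus strand), at chr9:7691840-7692089 for Mmp7, chr9:7627981-7628230 for Mmp20, chr9:7558179-7558428 for Mmp8, chr9:7445572-7445821 for Mmp3 and chr9:7344147-7344396 for Mmp12. Capitals mark matches to the AP-1 motif TGANTCA, on either strand, and to the TATA motif TATAA, on the gene's strand. No marked match overlaps another.
Mmp7: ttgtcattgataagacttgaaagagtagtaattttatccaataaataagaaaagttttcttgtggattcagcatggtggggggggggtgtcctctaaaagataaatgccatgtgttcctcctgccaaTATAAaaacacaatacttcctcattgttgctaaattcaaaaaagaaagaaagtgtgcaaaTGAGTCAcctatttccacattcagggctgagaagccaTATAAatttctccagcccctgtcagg
Mmp20: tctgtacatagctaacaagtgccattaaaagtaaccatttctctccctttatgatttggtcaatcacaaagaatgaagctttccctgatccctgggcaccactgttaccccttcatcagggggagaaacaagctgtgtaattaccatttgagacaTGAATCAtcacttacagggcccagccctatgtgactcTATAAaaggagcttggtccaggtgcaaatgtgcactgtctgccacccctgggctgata
Mmp8: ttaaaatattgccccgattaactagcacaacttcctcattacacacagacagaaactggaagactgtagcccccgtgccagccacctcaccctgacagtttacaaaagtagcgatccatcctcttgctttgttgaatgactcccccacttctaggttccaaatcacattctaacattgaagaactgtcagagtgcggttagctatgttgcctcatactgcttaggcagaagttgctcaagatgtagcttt
Mmp3: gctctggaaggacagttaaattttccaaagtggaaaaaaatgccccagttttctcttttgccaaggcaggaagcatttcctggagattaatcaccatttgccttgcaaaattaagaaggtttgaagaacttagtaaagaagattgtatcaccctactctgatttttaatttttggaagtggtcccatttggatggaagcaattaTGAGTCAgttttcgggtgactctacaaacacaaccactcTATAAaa
Mmp12: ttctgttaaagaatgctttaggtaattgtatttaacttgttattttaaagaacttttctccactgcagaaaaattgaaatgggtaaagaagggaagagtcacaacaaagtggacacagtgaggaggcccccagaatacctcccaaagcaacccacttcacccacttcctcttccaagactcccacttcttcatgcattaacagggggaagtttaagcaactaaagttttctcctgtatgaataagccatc

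TGANTCA was in the windows of Mmp7, Mmp20 and Mmp3 and not in those of Mmp8 and Mmp12, where these letters are absent from the 250 bases. It began at -63 in Mmp7, -95 in Mmp20 and -46 in Mmp3, where -1 is the base just before the start. The motif was in 6.85% of 27025 RefSeq windows of the same length. Among the 32 windows matched to the protease and inhibitor genes it was in 7, all of them in the chromosome 9 run (Mmp1a, Mmp1b, Mmp3, Mmp7, Mmp10, Mmp13 and Mmp20). TATAA was in 16.8% of all windows and in 10 of the 32. The androgen receptor hexamer AGAACA, on either strand, was in 16.1% of all windows and in 3 of the 32 (Mmp10, Mmp11 and Mmp23), and the TCF motif CTTTG in 48.8% of all and in 17 of the 32. A match of letters is not a binding site. Of the genes lower in the mutant under both treatments, Mmp7 and Mmp20 hold TGANTCA and Mmp8 does not, and of the other expressed genes of the run Mmp3 holds it and Mmp12 does not.

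Mmp20 encodes enamelysin, known for cutting enamel proteins in developing teeth. Its log2 level was 2.47, 1.58, 2.07, 2.28 and 1.53 in mutant finasteride, 1.16, 1.38 and 2.21 in mutant vehicle, 5.23, 4.83, 4.10, 4.59 and 5.53 in wild-type finasteride and 4.93, 5.35 and 5.90 in wild-type vehicle libraries. Every mutant library lay below every wild-type library, with no gap by treatment. The mutant minus wild-type difference was -3.81 ± 0.40 on vehicle and -2.87 ± 0.31 on finasteride, and with no filter on low values the limma adjusted p was 5.16e-06 and 1.09e-06. Neither finasteride effect passed (limma adjusted p = 0.366 in the mutant and 0.239 in the wild type). Its level per kilobase ranked 46 of 46 in both mutant groups and 27 and 23 in wild-type finasteride and wild-type vehicle. The lncRNA AV064505, which overlaps Mmp20 and Mmp7 in the annotation and was below the expression threshold, was at 1.59, 2.62, 2.25, 1.83 and 2.11 in mutant finasteride, 2.26, 0.99 and 2.30 in mutant vehicle, 3.38, 2.81, 3.65, 3.33 and 4.15 in wild-type finasteride and 3.52, 3.55 and 4.25 in wild-type vehicle libraries. The strand used in counting is not given in the sources used here, so reads of overlapping genes cannot be assigned with certainty.

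Mmp8 encodes a collagenase known from neutrophil granules. The log2 level was 3.01, 3.88, 2.82, 2.55 and 2.75 in mutant finasteride, 2.12, 2.38 and 1.81 in mutant vehicle, 5.39, 5.41, 5.18, 4.98 and 5.39 in wild-type finasteride and 6.32, 5.82 and 5.48 in wild-type vehicle libraries. All mutant libraries lay below all wild-type libraries, and within each genotype the treatments did not overlap. The mutant minus wild-type difference was -3.77 ± 0.31 on vehicle and -2.27 ± 0.24 on finasteride, and with no filter on low values the limma adjusted p was 5.37e-07 and 1.19e-06. Finasteride went with a higher level in the mutant (0.90 ± 0.28, limma adjusted p = 0.0144), a call lost without library 3 of mutant vehicle (0.0736) and over 11 libraries (0.0727). In the wild type the change of -0.60 ± 0.28 did not pass (limma adjusted p = 0.0948), and passed without library 2 of mutant finasteride (0.0322). None of 5 neutrophil markers was expressed, and their summed level was 4.80 to 5.41 in mutant finasteride, 3.75 to 4.43 in mutant vehicle, 3.50 to 4.59 in wild-type finasteride and 4.36 to 4.50 in wild-type vehicle libraries.

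Mmp12 encodes the macrophage metalloelastase. Its log2 level was 4.95, 7.85, 6.22, 6.83 and 7.52 in mutant finasteride, 3.79, 2.95 and 3.99 in mutant vehicle, 4.80, 4.80, 4.65, 4.69 and 4.50 in wild-type finasteride and 3.77, 5.50 and 4.90 in wild-type vehicle libraries. The mutant finasteride libraries spread widely and still all lay above those of mutant vehicle, while the wild-type groups overlapped. Finasteride went with an 8.56-fold higher level in the mutant (3.1 ± 0.52, limma adjusted p = 0.00021, and 0.0136 over 11 libraries), and the change in the wild type was -0.04 ± 0.52 (limma adjusted p = 0.96, positive after quantile normalization, at 0.44, and over 11 libraries, at 0.05). On finasteride the mutant was above the wild type by 1.99 ± 0.45 (limma adjusted p = 0.00133), and the finasteride effects differed by 3.14 ± 0.74 (limma adjusted p = 0.00219). Beside this, the summed level of 5 macrophage markers, all expressed, was 11.2 to 11.55 in mutant finasteride, 10.09 to 10.25 in mutant vehicle, 9.98 to 10.57 in wild-type finasteride and 10.68 to 11.09 in wild-type vehicle libraries. Its part in the Mmp12 result was not tested.

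Mmp3, or stromelysin 1, degrades proteoglycans and activates other precursors. Its log2 level was 3.86, 4.03, 4.74, 3.66 and 4.39 in mutant finasteride, 2.74, 2.88 and 3.12 in mutant vehicle, 3.47, 3.99, 2.92, 3.02 and 3.29 in wild-type finasteride and 3.91, 4.47 and 4.31 in wild-type vehicle libraries. Mutant vehicle was lowest, with no overlap with either mutant finasteride or wild-type vehicle. Its mutant vehicle mean of 2.91 lay under the expression threshold, which Mmp3 passed through the other groups. The lower level in mutant vehicle is therefore partly fixed by the filter and is given as a description. The mutant was lower on vehicle by a log2 change of -1.32 ± 0.31 (limma adjusted p = 0.0048), and finasteride went with a change of 1.22 ± 0.28 in the mutant (limma adjusted p = 0.00227) and of -0.89 ± 0.28 in the wild type (limma adjusted p = 0.0198). The wild-type call was lost without library 2 or 3 of wild-type vehicle (0.0679 to 0.0777), after quantile normalization (0.143) and over 11 libraries (0.157), where the vehicle call was lost too (0.0546). The collagenases Mmp1a, Mmp1b and Mmp13, stromelysin 2 (Mmp10) and Mmp27 averaged 1.92, 1.35, 2.85, 2.31 and 2.26 and were not tested. Mmp10 was at 2.43 to 3.36 in mutant finasteride and 0.97 to 1.72 in mutant vehicle libraries, which did not overlap.

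**Figure D2:**
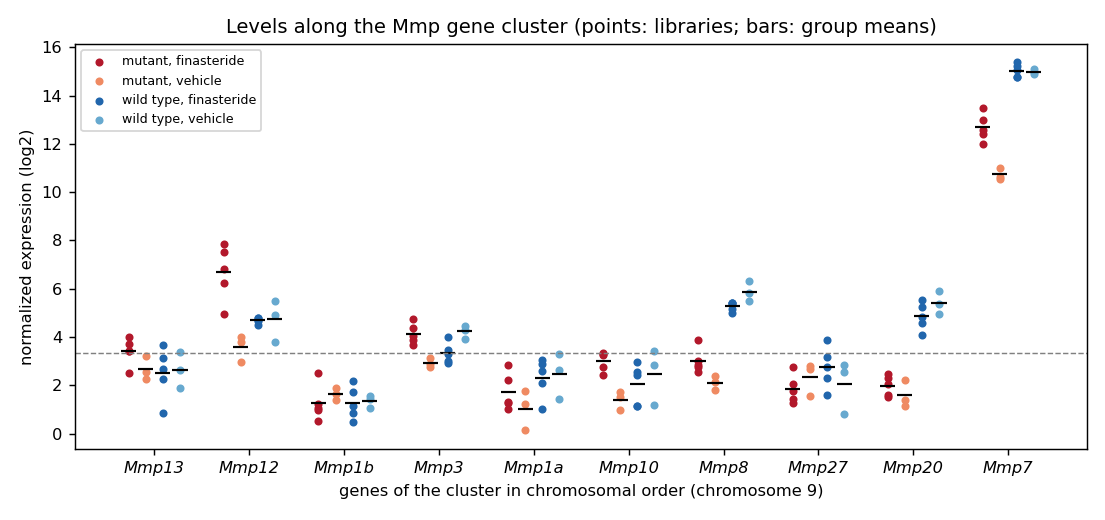
Log2 normalized expression (y axis) of the 10 Mmp genes of the chromosome 9 run in chromosomal order (x axis). Points are libraries, short bars group means and the dashed line the expression threshold of 3.32. Mmp8, Mmp20 and Mmp7, at the right end, are lower in mutant than in wild-type libraries, and Mmp12 is highest on average in mutant finasteride (6.67 ± 1.15).

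Genes that flank the run, named after their values were seen, changed by less than Mmp7, Mmp20 and Mmp8 on vehicle. Tmem123, Birc2 and Birc3, which lie past Mmp7, were lower in the mutant on vehicle by a log2 change of -0.52 ± 0.069, -0.35 ± 0.093 and -1.19 ± 0.18 (limma adjusted p = 4.61e-05, 0.00932 and 0.000139). Yap1, beyond them, changed by -0.09 ± 0.084 (limma adjusted p = 0.435). On the other side, Dcun1d5 and Dync2h1 changed by -0.01 ± 0.10 and -0.06 ± 0.20 on vehicle (limma adjusted p = 0.97 and 0.836). On finasteride the mutant was lower in Tmem123, Birc2, Birc3, Yap1 and Dcun1d5, with log2 changes of -0.70, -0.54, -0.61, -0.35 and -0.39 (limma adjusted p = 2.98e-08, 1.15e-05, 0.00125, 0.000245 and 0.000359), and Dync2h1 did not pass (-0.23 ± 0.15, limma adjusted p = 0.19).

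Across the 37 expressed genes, 31 differed among the 4 groups by limma's F test (83.8%, against 75% of all genes tested), and 19 over 11 libraries (51.4%, against 41%). The 31 include Mmp3, Mmp8 and Mmp20, each with at least 1 group mean under the expression threshold. On vehicle, the mutant had lower levels of most of the genes that passed: of 37, 6 were higher, 15 lower and 16 not called, against 14.6% of all genes called higher and 17.5% called lower (32.1% called in all). The median log2 change was -0.55 over the 37 and 0.0024 over all genes. The 15 include Mmp8, Mmp20 and Mmp3, whose mutant vehicle means lay under the expression threshold. After quantile normalization 9 were higher and 12 lower (17.3% and 14.7% of all genes), and over 11 libraries 0 were higher and 6 lower (Mmp7, Mmp8, Mmp20, Timp2, Adamts2 and Adamts3), against 3.94% and 5.33% of all genes. The count of higher genes fell to 3 without library 1 of mutant vehicle or library 3 of wild-type vehicle.

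In wild-type mice, more genes were lower than higher with finasteride: of 37, 4 were higher, 13 lower and 20 not called (18.4% of all genes higher, 21.7% lower and 40.1% called in all). Of those, 3 higher and 4 lower were Mmp genes, 1 higher and 6 lower Adamts genes, and 3 lower Timp genes. The median log2 change was -0.48, against -0.022 over all genes. These counts moved with the processing, with 8 higher and 9 lower after quantile normalization (22.2% and 16.3% of all genes), 2 and 2 over 11 libraries (3.65% and 5.06% of all genes), and 2 higher and 7 lower without library 1 of wild-type vehicle.

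In mutant mice, finasteride went with higher levels: of 37, 20 were higher, 2 lower (Mmp24 and Adamts6) and 15 not called. Of all genes, 25.7% were higher, 22.8% lower and 48.4% called in all. The median log2 change was 0.50 over the 37 and -0.013 over all genes. The 20 were 10 Mmp, 8 Adamts and 2 Timp genes, and include Mmp3 and Mmp8, whose mutant vehicle means lay under the expression threshold. After quantile normalization 15 were higher and 6 lower (19.6% and 28.4% of all genes), and over 11 libraries 8 were higher (11% of all genes) and 1 lower (9.25%).

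On finasteride, mutant and wild type differed in 27 of 37 genes: 20 were higher in the mutant, 7 lower and 10 not called (33.2% of all genes higher, 30.4% lower and 63.6% called in all). The 7 lower genes were Mmp7, Mmp8, Mmp15, Mmp17, Mmp20, Mmp24 and Adamts6. Mmp8 and Mmp20 passed the expression threshold only through the wild-type groups, so their place among the 7 is partly fixed by the filter. The median log2 change was 0.47, against 0.0082 over all genes. Quantile normalization moved the median over all genes to -0.1, and 11 of the 37 were then higher and 12 lower (26.1% and 37% of all genes). Over 11 libraries 14 were higher and 6 lower (21.9% and 19.1% of all genes).

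**Figure D3:**
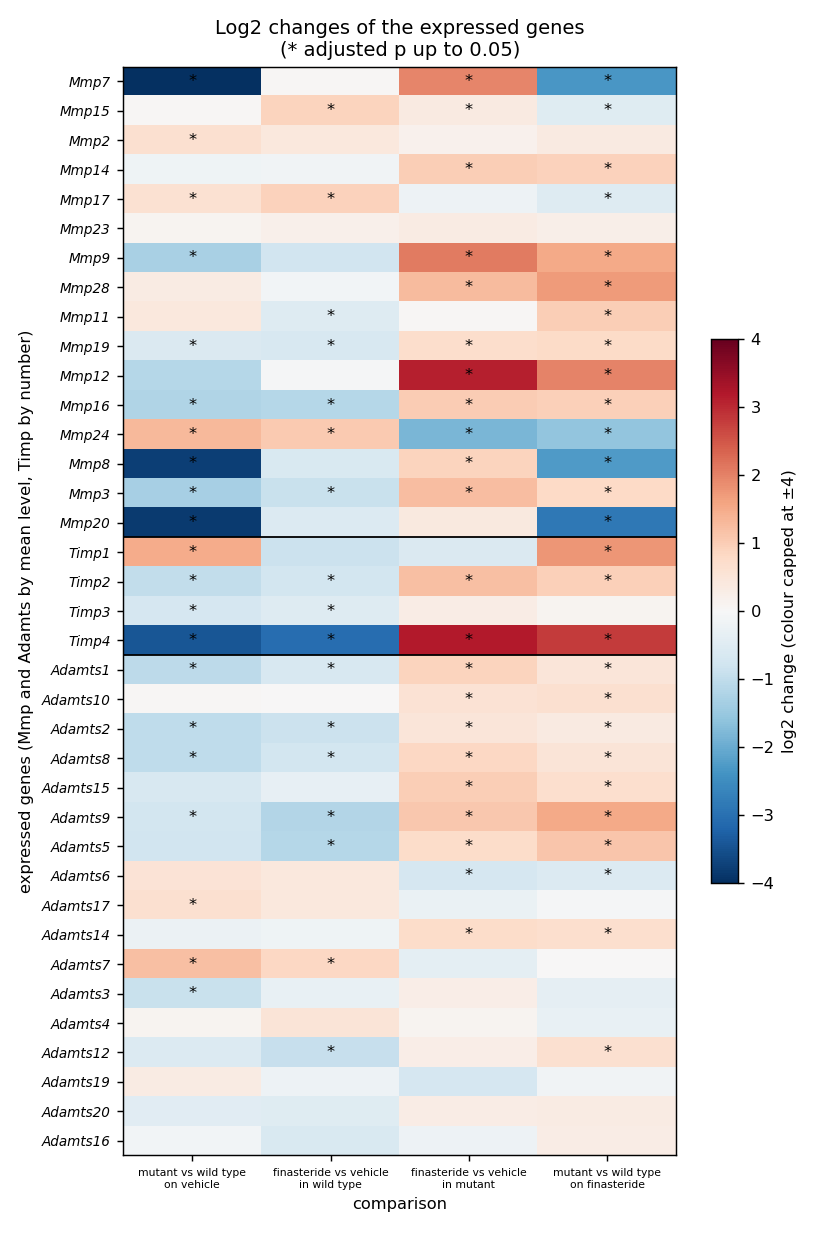
Log2 change (colour, capped at 4 in either direction) of the 37 expressed genes (rows, as Mmp, Timp and Adamts) in 4 comparisons (columns). Stars mark a limma adjusted p up to 0.05. Mmp7, Mmp8 and Mmp20 are low in the mutant in both columns that set mutant against wild type, and 20 genes are starred as higher with finasteride in the mutant. Mmp8 and Mmp20 passed the expression threshold only through the wild-type groups.

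Mmp9, or gelatinase B, cuts basement membrane collagen and is made largely by infiltrating cells. Log2 levels were 8.64, 7.16, 8.42, 8.12 and 7.72 in mutant finasteride, 6.16, 5.46 and 6.21 in mutant vehicle, 6.96, 6.57, 6.11, 6.32 and 6.52 in wild-type finasteride and 7.63, 6.93 and 7.17 in wild-type vehicle libraries. All mutant finasteride libraries lay above all of wild-type finasteride and of mutant vehicle. Finasteride went with a 4.2-fold higher level in the mutant (2.07 ± 0.30, limma adjusted p = 5.22e-05, and 0.00908 over 11 libraries), and with a change of -0.75 ± 0.30 in the wild type that did not pass (limma adjusted p = 0.0554). It passed there without library 1 or 2 of mutant finasteride or library 1 of wild-type finasteride (0.021 to 0.0425). On vehicle the mutant was lower by a log2 change of -1.30 ± 0.33 (limma adjusted p = 0.00758, and 0.0749 over 11 libraries), and on finasteride higher by 1.52 ± 0.26 (limma adjusted p = 0.000111). Beside this, the summed level of 4 B cell markers was 11 to 11.58 in mutant finasteride, 5.87 to 6.22 in mutant vehicle, 5.82 to 6.64 in wild-type finasteride and 7.69 to 7.77 in wild-type vehicle libraries, and that of 4 T cell markers 8.41 to 9.14, 7.0 to 7.24, 5.40 to 6.34 and 6.52 to 6.72 in that order. Library 1 of mutant finasteride, highest there in Mmp9, was lowest in the B cell, T cell and macrophage sums (11, 8.41 and 11.2). Library 2, lowest in Mmp9, was highest in the T cell and macrophage sums (9.14 and 11.55). The seminal vesicle sum in libraries 1 to 5 was 21.48, 16.65, 21.32, 20.85 and 20.43, ordered as Mmp9. Mmp28 and Timp3 had this order there too, and Mmp7, Mmp12, Timp1 and Timp4 had the reverse. The order of the sum was that of Mmp9 in wild-type vehicle as well, and not in mutant vehicle or wild-type finasteride. Libraries 3 and 4 of mutant finasteride and library 3 of wild-type vehicle could be rebuilt from 2 others of their group. A weighted mean lies between its parts in any gene, so these orders were partly fixed. The part of these cells or of attached gland in the Mmp9 result was not tested.

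Gelatinase A, Mmp2, is a stromal enzyme. It averaged 9.65 ± 0.081 in mutant finasteride, 9.49 ± 0.14 in mutant vehicle, 9.28 ± 0.49 in wild-type finasteride and 8.86 ± 0.20 in wild-type vehicle libraries (log2, mean ± SD). Only the mutant effect on vehicle passed (0.63 ± 0.22, limma adjusted p = 0.0415), and it was lost (0.0513 to 0.14) without any 1 of the mutant vehicle libraries, of libraries 1 and 3 of wild-type vehicle or of libraries 3, 4 and 5 of mutant finasteride, and over 11 (0.245). The change with finasteride in the wild type (0.43 ± 0.20) passed without library 5 of wild-type finasteride (0.00365), and the mutant effect on finasteride (0.37 ± 0.17) passed without library 1 of wild-type finasteride (0.0116).

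The membrane-bound metalloproteases changed in different directions. Mmp14 (MT1-MMP), which activates Mmp2 at the cell surface, was at 9.78, 9.81, 9.68, 9.76 and 9.62 in mutant finasteride, 8.87, 8.60 and 8.81 in mutant vehicle, 9.18, 8.73, 8.61, 8.72 and 8.81 in wild-type finasteride and 9.12, 8.82 and 8.89 in wild-type vehicle libraries. The mutant finasteride libraries lay above all the others, which overlapped. It was higher with finasteride in the mutant by 0.97 ± 0.11 (limma adjusted p = 8.17e-06) and did not pass in the wild type (-0.13 ± 0.11, limma adjusted p = 0.364), and the finasteride effects differed by 1.10 ± 0.16 (limma adjusted p = 4.53e-05, and 0.00748 over 11 libraries). Mmp16 (MT3-MMP) was at 5.17 to 5.88 in mutant finasteride, 4.37 to 4.85 in mutant vehicle, 4.16 to 4.97 in wild-type finasteride and 5.39 to 6.03 in wild-type vehicle libraries, and neither pair of treatments overlapped. It rose with finasteride in the mutant (1.01 ± 0.23, limma adjusted p = 0.00221) and fell in the wild type (-1.16 ± 0.23, limma adjusted p = 0.00145). Its mutant call was lost after quantile normalization (0.15), and both were lost over 11 libraries (0.0647 and 0.064).

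Mmp24 (MT5-MMP), known mainly from neural tissue, ran the other way. The level was 4.16, 3.28, 4.43, 3.49 and 3.56 in mutant finasteride, 5.65, 5.41 and 5.79 in mutant vehicle, 5.76, 4.88, 5.31, 5.26 and 5.52 in wild-type finasteride and 3.65, 5.15 and 4.14 in wild-type vehicle libraries. All mutant finasteride libraries lay below those of mutant vehicle and of wild-type finasteride, and the wild-type vehicle libraries spread widely and overlapped wild-type finasteride. It fell with finasteride in the mutant by a log2 change of -1.83 ± 0.32 (limma adjusted p = 0.000304) and was higher in the wild type by 1.03 ± 0.32 (limma adjusted p = 0.0197), a call lost without library 1 or 3 of wild-type vehicle (0.0762 to 0.134) and over 11 libraries (0.155). The mutant effect on vehicle (1.30 ± 0.36, limma adjusted p = 0.0123) was lost without library 1 of wild-type vehicle (0.0652) and over 11 libraries (0.18), and that on finasteride (-1.56 ± 0.28, limma adjusted p = 0.000183) was kept over 11 libraries (0.00497).

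Mmp15 (MT2-MMP) was at 11.25 to 11.44 in mutant finasteride, 10.88 to 11.04 in mutant vehicle, 11.69 to 11.99 in wild-type finasteride and 10.56 to 11.25 in wild-type vehicle libraries. It was highest in wild-type finasteride, with no overlap with any other group. It rose with finasteride in the wild type by 0.89 ± 0.11 (limma adjusted p = 7.18e-05) and by less in the mutant (0.37 ± 0.11, limma adjusted p = 0.0152), where the call was lost without library 2 of mutant vehicle (0.0728) and over 11 libraries (0.161). The effects differed by -0.52 ± 0.16 (limma adjusted p = 0.0125, 0.11 over 11 libraries and 0.13 after quantile normalization). Mmp17 (MT4-MMP), which is held by a lipid anchor, was at 7.68 to 8.27 in mutant finasteride, 8.13 to 8.40 in mutant vehicle, 8.32 to 9.02 in wild-type finasteride and 7.54 to 7.75 in wild-type vehicle libraries, and treatments overlapped in the mutant and not in the wild type. It rose with finasteride in the wild type by 0.92 ± 0.15 (limma adjusted p = 0.000453) and changed by -0.21 ± 0.15 in the mutant (limma adjusted p = 0.287). On finasteride it was lower in the mutant by a log2 change of -0.51 ± 0.13 (limma adjusted p = 0.00351, and 0.0491 over 11 libraries).

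Mmp28, or epilysin, an epithelial enzyme, was at 8.24, 7.48, 8.07, 7.99 and 7.59 in mutant finasteride, 6.41, 6.75 and 6.67 in mutant vehicle, 6.61, 6.44, 6.02, 6.00 and 5.82 in wild-type finasteride and 6.57, 5.88 and 6.4 in wild-type vehicle libraries. The mutant finasteride libraries lay above all the others. It was higher with finasteride in the mutant by 1.26 ± 0.22 (limma adjusted p = 0.000248) and above wild-type finasteride by 1.70 ± 0.19 (limma adjusted p = 1.64e-06), and both were kept over 11 libraries (0.028 and 0.00139). Mmp11 (stromelysin 3) and Mmp19, named after their values were seen, were higher in mutant than in wild type on finasteride by 0.99 ± 0.16 and 0.77 ± 0.14 (limma adjusted p = 7.81e-05 and 0.000256), and neither passed after quantile normalization (0.0536 and 0.619).

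Timp2 and Timp4 were called in the same direction in each comparison, and Timp1 and Timp3 each differed from them in at least 1. Timp2 was at 12.66, 12.56, 12.66, 12.67 and 12.60 in mutant finasteride, 11.57, 11.30 and 11.44 in mutant vehicle, 11.93, 11.93, 11.70, 11.52 and 11.37 in wild-type finasteride and 12.57, 12.33 and 12.39 in wild-type vehicle libraries. Mutant finasteride and wild-type vehicle were high and overlapped narrowly, whereas mutant vehicle and wild-type finasteride were low and overlapped. It rose with finasteride in the mutant by 1.19 ± 0.11 (limma adjusted p = 1.37e-06) and fell in the wild type by a log2 change of -0.74 ± 0.11 (limma adjusted p = 0.000282), and the effects differed by 1.93 ± 0.16 (limma adjusted p = 3.39e-07). The mutant was lower on vehicle (-0.99 ± 0.13, limma adjusted p = 3.97e-05) and higher on finasteride (0.94 ± 0.10, limma adjusted p = 9.76e-07). Each of these calls was kept without any 1 library, after quantile normalization and over 11 libraries, where the adjusted p ran from 0.000848 to 0.0307.

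Timp4, an inhibitor with a narrow tissue range, was at 10.54, 11.49, 10.73, 10.85 and 11.08 in mutant finasteride, 7.82, 7.76 and 7.69 in mutant vehicle, 4.74, 10.06, 10.32, 9.44 and 6.10 in wild-type finasteride and 11.42, 11.04 and 11.06 in wild-type vehicle libraries. Mutant finasteride and wild-type vehicle were high, mutant vehicle was low and tight, and in wild-type finasteride libraries 2, 3 and 4 were high and libraries 1 and 5 low. It was higher with finasteride in the mutant by 3.18 ± 0.96 (limma adjusted p = 0.0128) and lower in the wild type by a log2 change of -3.04 ± 0.96 (limma adjusted p = 0.0207). On finasteride the mutant was above the wild type by 2.81 ± 0.83 (limma adjusted p = 0.00825, and 0.0487 over 11 libraries), and the effects differed by 6.22 ± 1.36 (limma adjusted p = 0.00125, and 0.0271 over 11 libraries). The wild-type call was lost without library 1 or 3 of wild-type vehicle (0.0551 to 0.069), and the lower level in the mutant on vehicle (-3.42 ± 1.07, limma adjusted p = 0.0237) was lost without any 1 of 5 vehicle libraries, library 2 of wild-type vehicle being the exception (0.0562 to 0.0629). Over 11 libraries neither of these nor the mutant finasteride effect passed (0.118, 0.194 and 0.125). In the annotation Timp4 overlaps Syn2, as Timp1 overlaps Syn1 and Timp3 overlaps Syn3.

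Beside Timp4, the summed level of 4 adipocyte markers, all expressed, was 8.70 to 9.13 in mutant finasteride, 6.93 to 7.74 in mutant vehicle, 4.59 to 7.91 in wild-type finasteride and 8.84 to 9.40 in wild-type vehicle libraries. In wild-type finasteride libraries 1 to 5 it was 4.59, 7.91, 5.57, 4.95 and 4.59. Its part in the Timp4 result was not tested.

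Timp1, an inhibitor that many cytokines induce, was at 6.60, 8.76, 7.18, 7.70 and 8.28 in mutant finasteride, 8.29, 8.21 and 8.38 in mutant vehicle, 5.96, 5.87, 6.11, 6.03 and 5.78 in wild-type finasteride and 7.14, 6.52 and 6.79 in wild-type vehicle libraries. Both mutant groups lay above their wild-type counterparts without overlap, wild-type finasteride lay below wild-type vehicle, and in mutant finasteride library 2 was highest and library 1 lowest. The mutant was higher by 1.48 ± 0.38 on vehicle (limma adjusted p = 0.00822, and 0.134 over 11 libraries) and by 1.75 ± 0.30 on finasteride (limma adjusted p = 0.000105, and 0.00423). Neither finasteride effect passed (-0.59 ± 0.34 in the mutant, limma adjusted p = 0.168, and -0.87 ± 0.34 in the wild type, limma adjusted p = 0.0543). The mutant effect passed without library 2 of mutant finasteride (0.0189), and the wild-type effect without library 1 or 2 of mutant finasteride (0.0162 to 0.0171). The difference between them was 0.28 ± 0.48 (limma adjusted p = 0.641), and was negative after quantile normalization (-0.37).

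Timp3, which binds the matrix and also blocks aggrecanases, was at 10.96, 10.08, 10.85, 10.73 and 10.54 in mutant finasteride, 10.37, 10.30 and 10.37 in mutant vehicle, 10.80, 10.56, 10.24, 10.43 and 10.58 in wild-type finasteride and 11.16, 10.94 and 10.96 in wild-type vehicle libraries. All wild-type vehicle libraries lay above all of wild-type finasteride and of mutant vehicle. It was lower in the mutant on vehicle by a log2 change of -0.68 ± 0.18 (limma adjusted p = 0.00928) and with finasteride in the wild type by a log2 change of -0.50 ± 0.16 (limma adjusted p = 0.0215). The second call was lost without library 1 of wild-type vehicle (0.0971), and neither held over 11 libraries (0.105 and 0.149). The changes with finasteride in the mutant (0.28 ± 0.16) and between genotypes on finasteride (0.11 ± 0.14) passed without library 2 of mutant finasteride (0.00706 and 0.0443), and the first also after quantile normalization (0.0366). The finasteride effects differed by 0.79 ± 0.23 (limma adjusted p = 0.00819, and 0.12 over 11 libraries).

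**Figure D4:**
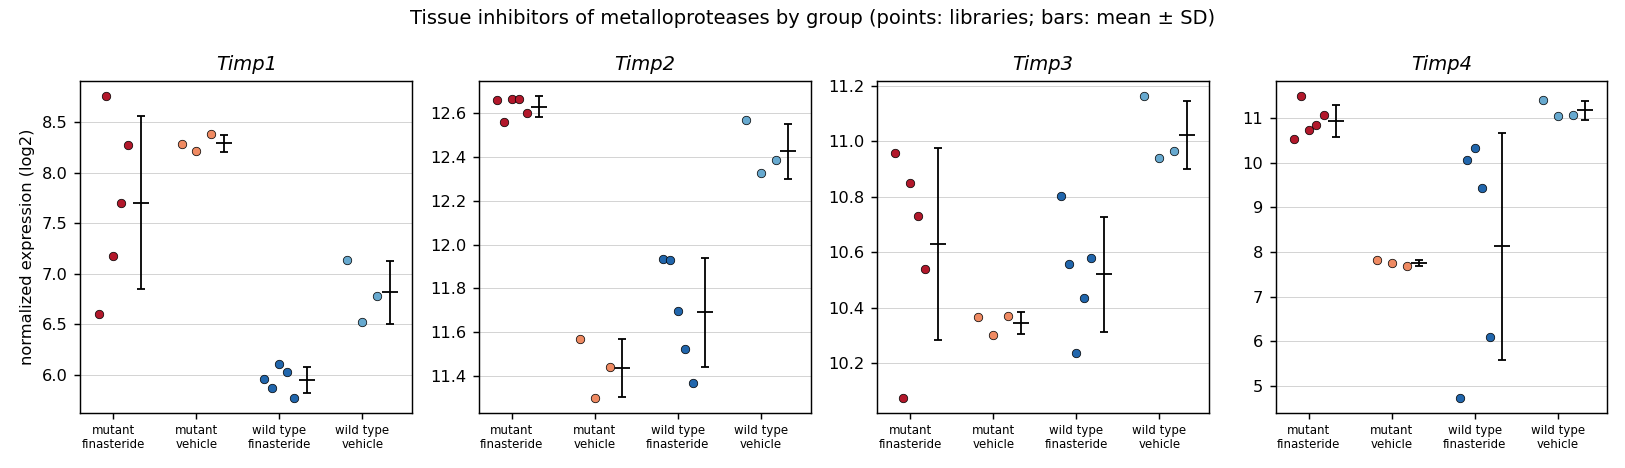
Log2 normalized expression (y axes, scaled to each gene) of the 4 Timp genes in the 16 libraries, by group. Points are libraries and bars the group mean ± SD. Timp2 and Timp4 are lower in mutant vehicle than in mutant finasteride and wild-type vehicle, Timp1 is higher on average in mutant than in wild-type groups, and Timp4 spreads from 4.74 to 10.32 in wild-type finasteride.

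Of the 17 expressed Adamts genes, 8 were higher and 1 was lower with finasteride in the mutant, and 9 were higher and 1 lower in the mutant than in the wild type on finasteride (25.7% and 22.8% of all genes in the first comparison, 33.2% and 30.4% in the second). Over 11 libraries these counts were 1 and 0 (11% and 9.25% of all genes), and 4 and 0 (21.9% and 19.1%). Among the genes that cut versican and aggrecan, Adamts9 was at 8.06, 7.48, 7.78, 7.81 and 7.75 in mutant finasteride, 6.70, 6.54 and 6.84 in mutant vehicle, 6.10, 6.93, 6.32, 6.44 and 5.53 in wild-type finasteride and 7.53, 7.19 and 7.61 in wild-type vehicle libraries. Mutant finasteride was highest as a group and wild-type finasteride lowest, and these did not overlap. It rose with finasteride in the mutant by 1.08 ± 0.23 (limma adjusted p = 0.0013) and fell in the wild type by a log2 change of -1.18 ± 0.23 (limma adjusted p = 0.00124), and the effects differed by 2.26 ± 0.33 (limma adjusted p = 4.28e-05, and 0.00725 over 11 libraries). The lower level in the mutant on vehicle (-0.75 ± 0.26, limma adjusted p = 0.0364) was lost without any 1 of 5 vehicle libraries (0.0576 to 0.12), library 2 of wild-type vehicle being the exception. Over 11 libraries the mutant finasteride call was kept (0.0419) and the wild-type finasteride call was not (0.0569).

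Adamts5, a main aggrecanase of mouse cartilage, was at 7.63, 6.97, 7.88, 7.47 and 7.60 in mutant finasteride, 7.03, 6.41 and 6.92 in mutant vehicle, 6.72, 6.4, 5.77, 6.33 and 6.80 in wild-type finasteride and 8.13, 7.07 and 7.47 in wild-type vehicle libraries. It was lower with finasteride in the wild type, without overlap, by a log2 change of -1.15 ± 0.27 (limma adjusted p = 0.00382), and higher in the mutant by 0.73 ± 0.27 (limma adjusted p = 0.0353), where the groups overlapped and the call was lost (0.0533 to 0.172) without library 2 or 3 of mutant vehicle or any mutant finasteride library but library 2. Over 11 libraries neither passed (0.0724 and 0.241). Its neighbour Adamts1 on chromosome 16, another versican-cutting enzyme, was at 7.95 to 8.26 in mutant finasteride, 7.02 to 7.49 in mutant vehicle, 7.35 to 8.42 in wild-type finasteride and 8.20 to 8.32 in wild-type vehicle libraries. It rose with finasteride in the mutant by 0.89 ± 0.19 (limma adjusted p = 0.00149, and 0.0805 over 11 libraries) and was lower in the mutant on vehicle by a log2 change of -1.06 ± 0.22 (limma adjusted p = 0.00164, and 0.0785 over 11 libraries). With finasteride in the wild type it was lower by a log2 change of -0.64 ± 0.19 (limma adjusted p = 0.0168), a call lost without library 1 of wild-type vehicle (0.0586) and over 11 libraries (0.144). The third of this kind, Adamts4, named after its values were seen, passed in none of the 4 comparisons.

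Of the procollagen N-proteinases Adamts2, Adamts3 and Adamts14, named for their shared role after their values were seen, Adamts2 was lower in the mutant on vehicle by a log2 change of -1.0 ± 0.17 (limma adjusted p = 0.000316, and 0.012 over 11 libraries) and with finasteride in the wild type by a log2 change of -0.87 ± 0.15 (limma adjusted p = 0.000507, and 0.0293). Adamts14 was higher with finasteride in the mutant by 0.72 ± 0.19 (limma adjusted p = 0.00644, 0.082 over 11 libraries and 0.462 after quantile normalization). Adamts3 passed only on vehicle, lower in the mutant by a log2 change of -0.89 ± 0.26 (limma adjusted p = 0.0159), and not without library 1 of mutant vehicle or library 1 of wild-type vehicle (0.0704 to 0.0871) or after quantile normalization (0.181).

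Adamts10, tied to fibrillin microfibrils, was higher with finasteride in the mutant by 0.59 ± 0.14 (limma adjusted p = 0.00255, and 0.124 over 11 libraries) and in the mutant on finasteride by 0.64 ± 0.12 (limma adjusted p = 0.000282, and 0.0254), and changed by 0.01 ± 0.14 in the wild type (limma adjusted p = 0.945). Adamts12 fell with finasteride in the wild type by a log2 change of -0.92 ± 0.21 (limma adjusted p = 0.00304), which was not kept after quantile normalization (0.0579) or over 11 libraries (0.0995). On finasteride it was higher in the mutant by 0.64 ± 0.18 (limma adjusted p = 0.00581, and 0.0779 over 11 libraries), and the direction turned after quantile normalization (-0.06). Adamts7, which like Adamts12 cuts cartilage oligomeric matrix protein and is named after its values were seen, was higher in the mutant on vehicle by 1.21 ± 0.26 (limma adjusted p = 0.00243, and 0.075 over 11 libraries).

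Whether finasteride acted differently in the 2 genotypes was tested directly. The finasteride effect was more positive in the mutant for 21 of 37 genes and more negative for 6, and 10 did not pass (29.4% of all genes more positive, 27.1% more negative and 56.6% called in all). The median difference was 0.94 log2 units, against -0.0215 over all genes and -0.159 over all genes after quantile normalization, when 14 were more positive and 7 more negative (22.1% and 33.6% of all genes). Over 11 libraries 15 were more positive and 2 more negative (17.1% and 12.3% of all genes). Among the 21 over all libraries are Mmp3 and Mmp8, whose mutant vehicle means lay under the expression threshold, so these are given as a description. With no filter on low values the Mmp8 difference had a limma adjusted p of 0.00864. By estimate, 19 of the 21 were lower with finasteride in the wild type and higher in the mutant, Mmp7 and Adamts10 being the exceptions. Genes chosen for a positive difference tend toward such signs, and the share of all genes with this shape was not taken. Among the 19 are genes whose wild-type change did not pass, such as Mmp12 (-0.04 ± 0.52), Mmp28 (-0.11 ± 0.22) and Mmp14 (-0.13 ± 0.11). After quantile normalization that of Mmp12 and Mmp28 was positive (0.44 and 0.28). Past the threshold in both genotypes and in opposite directions were 10 of the 37 genes (12.1% of all genes) lower in the wild type and higher in the mutant (Mmp3, Mmp16, Mmp19, Timp2, Timp4, Adamts1, Adamts2, Adamts5, Adamts8 and Adamts9) and Mmp24 (7.92% of all genes), which was higher in the wild type and lower in the mutant. Over 11 libraries only Timp2 passed in both (2.05% of all genes), and 0 genes passed the other way (1.34%).

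**Figure D5:**
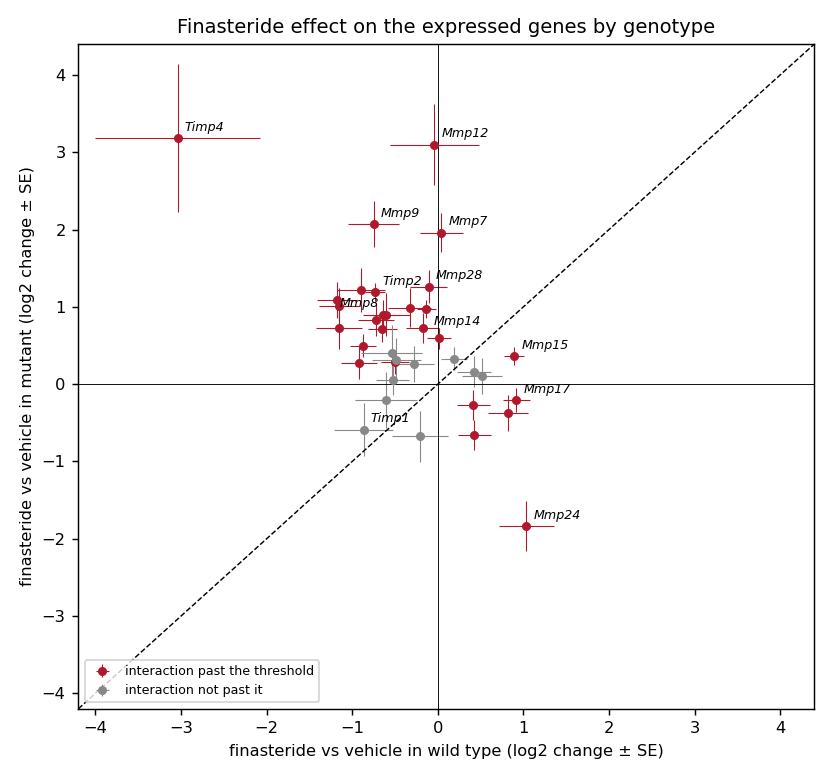
Log2 change with finasteride in wild-type mice (x axis) and in mutant mice (y axis) for the 37 expressed genes, each with its SE. The dashed line marks equal effects, and red points are the 27 genes whose difference passed the threshold. Of the 21 genes with a more positive effect in the mutant, 19 lie at the upper left, by estimate lower in the wild type and higher in the mutant. Their wild-type change was as small as -0.04 ± 0.52, in Mmp12. Timp4 lies farthest out there and Mmp24 farthest to the lower right. The 21 include Mmp3 and Mmp8, whose mutant vehicle means lay under the expression threshold.

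Genes that act with these enzymes were read from a list of 40 proteases and regulators, of which 34 were expressed. In the mutant on finasteride against vehicle, 21 were higher and 5 lower (25.7% and 22.8% of all genes), with a median log2 change of 0.551, over 11 libraries 11 and 3, and after quantile normalization 17 and 4. Finasteride in the wild type gave 3 higher and 14 lower (18.4% and 21.7% of all genes; median -0.384; 3 and 6 after quantile normalization, 0 and 2 over 11 libraries), the mutant effect on vehicle 7 higher and 10 lower (14.6% and 17.5% of all genes; median -0.102; 8 and 7, and 4 and 1), and the mutant effect on finasteride 23 higher and 2 lower (33.2% and 30.4% of all genes; median 0.75; 17 and 2, and 19 and 1). Of all genes over 11 libraries, 11% were higher and 9.25% lower with finasteride in the mutant, and 3.65% and 5.06% in the wild type. The mutant effect had 3.94% and 5.33% on vehicle and 21.9% and 19.1% on finasteride. After quantile normalization these 4 pairs were 19.6% and 28.4%, 22.2% and 16.3%, 17.3% and 14.7%, and 26.1% and 37%. The 4 lysosomal cysteine cathepsins Ctsb, Ctsk, Ctsl and Ctss all rose with finasteride in the mutant, by 0.64 to 1.72, and all fell with it in the wild type, by a log2 change of -0.59, -0.62, -0.77 and -0.54. Over 11 libraries 4 of the mutant and 1 of the wild-type changes passed, and after quantile normalization 3 and 2.

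Among the activators of plasminogen, which in turn activates several Mmp precursors, urokinase (Plau) rose with finasteride in the mutant by 5.68 ± 1.19 (limma adjusted p = 0.00117) and tissue activator (Plat) by 1.0 ± 0.16 (limma adjusted p = 0.000135). The urokinase receptor Plaur was higher in the mutant on vehicle by 1.67 ± 0.21 (limma adjusted p = 3.74e-05) and fell with finasteride in the mutant and in the wild type (-1.03 ± 0.19 and -1.01 ± 0.19, limma adjusted p = 0.000479 and 0.00104), effects whose difference was -0.02 ± 0.27 (limma adjusted p = 0.957). Hepsin (Hpn), an epithelial serine protease, rose with finasteride in the mutant by 1.99 ± 0.22 (limma adjusted p = 5.51e-06). Reck, a membrane inhibitor of several Mmps, passed in none of the comparisons (between 0.01 and 0.13 in the 4). These genes were picked from the list after their values were seen. Of 5 expressed genes of the plasminogen system, 3 were higher and 1 lower with finasteride in the mutant (25.7% and 22.8% of all genes). Over 11 libraries 1 was higher and 1 lower (11% and 9.25% of all genes), so Plau and Plat did not both pass. Of 5 expressed serine proteases, Hpn among them, 3 were higher and 0 lower with finasteride in the mutant, and 2 and 0 over 11 libraries, beside the same shares of all genes.

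Of 25 substrates, 22 were expressed. With finasteride in the mutant 12 were higher and 0 lower (25.7% and 22.8% of all genes, median 0.338), and with finasteride in the wild type 2 higher and 8 lower (18.4% and 21.7% of all genes, median -0.263). In the mutant on vehicle 4 were higher and 12 lower (14.6% and 17.5% of all genes, median -0.435), and in the mutant on finasteride 13 higher and 1 lower (33.2% and 30.4% of all genes, median 0.286). Over 11 libraries these 4 comparisons gave 5 and 0, 1 and 5, 1 and 3, and 5 and 1 in the same order, and after quantile normalization 16 and 1, 2 and 10, 4 and 14, and 17 and 1. The shares of all genes in both settings are those given above beside the proteases and regulators. Versican (Vcan), the substrate of Adamts1, Adamts5 and Adamts9, rose with finasteride in the mutant by 0.85 ± 0.20 (limma adjusted p = 0.00289) and fell in the wild type by a log2 change of -1.64 ± 0.20 (limma adjusted p = 5.84e-05). Over 11 libraries the rise in the mutant did not pass and the fall in the wild type did. Of 7 other matrix genes, among them Spp1 and Fn1, 6 were higher with finasteride in the mutant, and 3 over 11 libraries. Osteopontin (Spp1), which several Mmps cut, rose in the mutant by 5.36 ± 0.74 (limma adjusted p = 3.44e-05) and fell in the wild type by a log2 change of -3.63 ± 0.74 (limma adjusted p = 0.00157). Fibronectin (Fn1) rose in the mutant by 1.10 ± 0.14 (limma adjusted p = 2.29e-05), and of 5 fibrillar procollagen genes 1 was higher and 0 lower there, 0 higher and 3 lower with finasteride in the wild type, 0 higher and 4 lower in the mutant on vehicle, and 3 higher and 0 lower in the mutant on finasteride. Over 11 libraries these 4 counts were 0 and 0, 0 and 3, 0 and 1, and 0 and 0. The summed level of 5 fibroblast markers, all expressed, was 13.2 to 13.82 in mutant finasteride, 12.79 to 12.93 in mutant vehicle, 12.75 to 13.59 in wild-type finasteride and 14.17 to 14.43 in wild-type vehicle libraries. Its part in these changes was not tested.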

How the data were processed

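Poly-A RNA of mouse prostate was sequenced in 16 libraries of 4 groups (genotype by finasteride or vehicle, age 12 months). The authors deposited 1 table of normalized expression per gene on a log scale, taken as log2 from the values. The submitters' processing notes name CASAVA 1.8.2, TopHat, Cufflinks, DESeq, DESeq2 and the genome build mm9, without their roles. Read counts were not used here, so depth per library is unknown and low values carry an unknown counting error. The mutated gene is not reported here.

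The deposited log2 values were fitted in limma 3.58.1 (R 4.3.3) with 1 mean for each group, a variance trend and no covariate. The 16506 genes with a mean log2 value of at least 3.32 entered the fit, and p-values were adjusted by Benjamini-Hochberg over them for each of 5 contrasts and the F test, with a threshold of 0.05. The code was tested on simulated data. A library was called mixture-like when a weighted mean of 2 others of its group, with both weights over 0.2, left a residual up to 0.1 over genes of log2 8 or more.

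Named genes were Mmp7, the Timp genes, the 10 expressed members highest on the log2 scale, the 8 called members with the largest change in each comparison, and the Mmp genes beside Mmp7 on chromosome 9; genes outside this rule were named after their values were seen. The members and the lists of partners, substrates and cell markers were chosen with earlier results of these data known. Marker sums are log2 of the summed values out of log2. Exon lengths were from GENCODE vM21 (GRCm38) and promoter sequences from RefSeq (GRCm38.p6), where 32 of the 46 genes matched. Alternatives changed the filter, added a pseudocount, normalized by quantiles, dropped the variance trend, weighted libraries, kept only the groups compared, or left out libraries.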

Additional observations from a re-analysis of the deposited data

Results flagged for a closer look

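In 3 cases 1 library lay apart from the others of its group by Dixon's test. These were Adamts1 in library 2 of wild-type finasteride (log2 level 8.42), Adamts17 in library 3 of wild-type finasteride (5.62) and Mmp23 in library 1 of wild-type finasteride (7.59). Groups of 5 libraries were tested 74 times, and chance marks about 1 in 20.

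For 19 of the genes named by the stated rule, among the 27 counted in all, the finasteride effect differed between mutant and wild-type mice by limma's interaction term. The difference, mutant minus wild type on the log2 scale, was 6.22 for Timp4, 3.14 for Mmp12, 2.82 for Mmp9, 2.26 for Adamts9, 2.17 for Mmp16 and 2.11 for Mmp3. It was 1.93 for Timp2, 1.92 for Mmp7, 1.88 for Adamts5, 1.53 for Adamts1, 1.5 for Mmp8, 1.37 for Mmp28, 1.19 for Adamts12 and 1.10 for Mmp14. It was 0.79 for Timp3 and 0.58 for Adamts10. It was negative for Mmp24 (-2.87), Mmp17 (-1.12) and Mmp15 (-0.52).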

How the results depend on the processing

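Over the 11 libraries that are not mixture-like, 0 genes were higher and 6 lower in the mutant on vehicle, 2 higher and 2 lower with finasteride in the wild type, 8 higher and 1 lower with finasteride in the mutant, 2 had a more negative finasteride effect in the mutant and 19 differed among groups. Fewer samples entered these fits. Quantile normalization gave 8 higher with finasteride in the wild type, 6 lower with finasteride in the mutant, and 11 higher and 12 lower in the mutant on finasteride. Library weights gave 10 higher in the mutant on vehicle, 8 higher and 20 lower with finasteride in the wild type and 7 lower with finasteride in the mutant. Shares of all genes were not taken with library weights or without 1 library, so those counts cannot be set against them. With genes of log2 6 or more, 3 libraries were mixture-like.

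Leaving out 1 library gave 3 to 7 higher and 11 to 16 lower in the mutant on vehicle, 2 to 5 and 7 to 16 with finasteride in the wild type, and 18 to 21 and 2 to 3 in the mutant. It gave 17 to 21 higher and 7 lower in the mutant on finasteride, 21 to 22 more positive and 5 to 6 more negative finasteride effects, and 28 to 32 genes by the F test. Mmp7 ran from -4.40 to -4.17 between genotypes on vehicle, 1.76 to 2.13 with finasteride in the mutant, -2.54 to -2.17 between genotypes on finasteride, 1.72 to 2.09 for the difference of effects, and -0.045 to 0.11 with finasteride in the wild type.

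Among the genes named by the stated rule, the direction turned after quantile normalization for Mmp15 on vehicle (-0.028), Mmp12 (0.44) and Mmp28 (0.28) with finasteride in the wild type, Adamts12 with finasteride in the mutant (-0.34) and between genotypes on finasteride (-0.062), and the Timp1 difference of effects (-0.37). With library weights it turned for Adamts10 on vehicle (-0.030) and with finasteride in the wild type (-0.037) and for the Timp1 difference (-0.099), and over 11 libraries for Mmp12 in the wild type (0.049) and Timp3 on finasteride (-0.018). Without 1 library it also turned for Mmp15 (-0.14 to 0.20) and Adamts10 (-0.0055 to 0.092) on vehicle, and for Adamts10 (-0.054 to 0.048), Mmp12 (-0.52 to 0.35) and Mmp28 (-0.31 to 0.041) in the wild type. Of these, Adamts12 on finasteride had passed the threshold as deposited; outside the rule, so had the Adamts14 difference of effects, which turned after quantile normalization (-0.098). The cause was not tested. No paired analysis was possible because the labels give no replicate number shared by groups.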
